A study of Bos taurus with 48 samples.

Results

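The distal microRNAs of the imprinted DLK1-DIO3 domain, those encoded at the non-coding gene MEG9 (Mirg), were followed across 3 bovine tissues and 3 feeding labels. Members were all rows whose bta-miR number belonged to a list of 34 numbers for this cluster, and 45 of the 524 listed microRNAs met this rule. They covered 30 of the 34 numbers, while miR-300, miR-544, miR-889 and miR-1193 were not analysed here. All 45 matched RefSeq genes (assembly ARS-UCD2.0, used for names and gene order because the sources used here do not state the build behind the deposited values), 42 genes in all on 1 chromosome. The genes run from MIR379 at one end to MIR656 at the other. The pairs MIR299 with MIR299-2 and MIR409A with MIR409B overlap each other in that annotation, so the split of reads within each pair is uncertain.

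In mammals the DLK1-DIO3 domain is expressed by parent of origin. The protein-coding genes, among them DLK1, are read from the paternal copy, and the long non-coding RNAs MEG3, MEG8 and MEG9 from the maternal copy. The microRNAs are cut from these maternal transcripts as hairpins, each of which can give a 5p and a 3p mature strand, and a mature strand finds its target messenger RNAs mainly through its seed, the bases near its 5′ end. The cluster is best known from embryo, placenta and brain.

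Small RNA libraries were made from mammary parenchyma (the part of the gland that holds the epithelial ducts, 15 samples), the mammary fat pad around it (16 samples) and liver (17 samples) of Bos taurus. Samples were labelled ad libitum (milk replacer without limit, 6 samples in each tissue), restricted (a limited amount of milk replacer, 6 in each tissue) or control (3 in parenchyma, 4 in fat pad, 5 in liver). The labels do not give breed, sex or age, what the control animals were fed, or whether samples of different tissues came from the same animals, so p-values measure the spread between these samples. Ad libitum and restricted samples together, 12 in each tissue, are called the milk replacer samples below.

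Values are normalised read counts, which are reads divided by 1 size factor per library. The estimated number of reads was 6193678 to 11291532 in parenchyma, 2123962 to 9522666 in fat pad and 826776 to 5146724 in liver. A value of 0 can hide up to 5 reads, which corresponds to a value of up to 2.83 in the milk replacer parenchyma, 9.86 in fat pad and 31 in the shallowest milk replacer liver library. Low members could therefore be seen less well in liver. miR-122, the hepatocyte microRNA, lay between 18.12 and 19.91 as log2(value + 1) in all liver samples and at 11.89 or less in all mammary samples. The mean log2 level of 9 epithelial microRNAs lay between 11.54 and 12.38 in milk replacer parenchyma and between 0.47 and 3.36 in fat pad. It was only 4.17, 2.73 and 4.07 in the control parenchyma samples numbered 1, 2 and 18, which thus go against the label of an epithelial tissue.

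The study's own assay for miR-381, one of the 8 most abundant members, is shown because it is the member whose sequence was in the study's files. It was designed on the pig sequence and is written with its seed, bases 2 to 8, in capitals. The bovine mature sequences were not used here.
porcine miR-381-3p qPCR assay: tATACAAGgacaagctctctgt

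The members were plentiful in the mammary gland and scarcer in liver. Summed over all 45, the normalised read count per sample was lowest at 84174, median 162346 and highest at 231440 in the 12 milk replacer parenchyma samples, or 2.72% to 6.66% of all microRNA counts. In the 12 milk replacer fat pad samples the sum ran from 60272 over a median of 86757 to 118136. The 12 milk replacer liver samples held 28931 to 65469 with a median of 36343. Of the parenchyma samples, only the restricted samples 10 (84174) and 16 (109689) lay within the fat pad range, and sample 10 also below the fat pad median. Fat pad overlapped at one end with liver, while parenchyma and liver did not overlap.

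**Figure D1:**
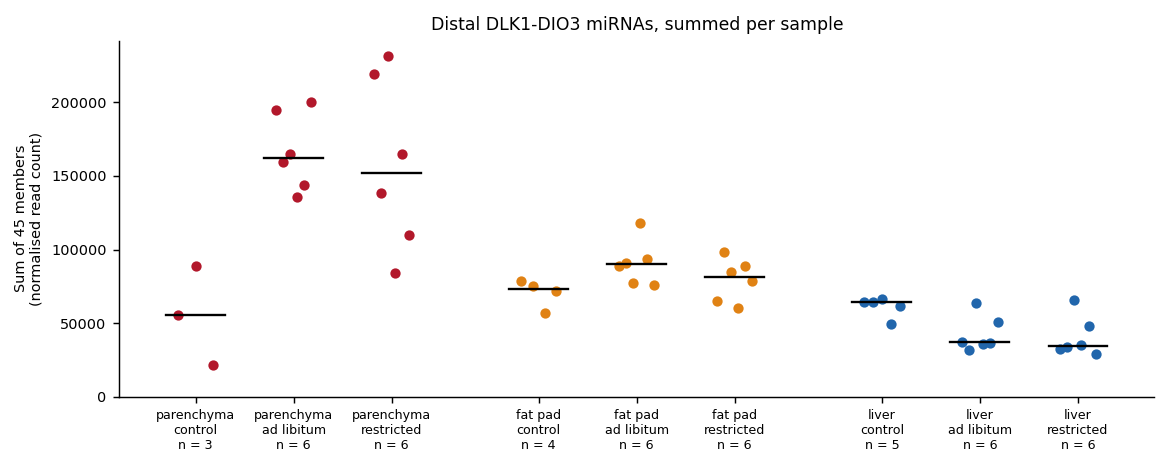
Sum of the 45 members in each sample (y axis, normalised read count) by tissue and feeding label (x axis). Points are samples and bars are medians. Control parenchyma (21638, 55190 and 88572) lies mostly below milk replacer parenchyma, whereas control liver (49422 to 66501) lies mostly above milk replacer liver (28931 to 65469).

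Detection followed the same order. Of the 45 members, 41 were above 0 in all 12 milk replacer parenchyma samples, 31 in fat pad and 22 in liver. This order was not particular to the members. Every milk replacer parenchyma library also had more of all listed microRNAs above 0 than any fat pad or liver library. Liver libraries tended to have fewer than fat pad libraries, with an overlap. Median library depth fell in the same order, and its part in the detection of members was not tested. No member was at 0 throughout in parenchyma. In fat pad miR-154a, miR-299-2, miR-541 and miR-668-3p were listed at 0 in all 12 samples. Liver held 10 such members, the same 4 and also miR-376b, miR-380-5p, miR-412, miR-496, miR-539 and miR-1185. At the other end, a mean of at least 1000 was reached by 16 members in parenchyma, 14 in fat pad and 9 in liver.

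A few microRNAs made up most of the pool. miR-411a, encoded next to miR-379 at the MIR379 end, ranked first in all 3 tissues and held on average 41.6% of the member counts in parenchyma, 38.7% in fat pad and 37.3% in liver. The 8 most abundant members of each tissue together held 86.1%, 84.4% and 86.1%. miR-379 was second in each tissue, with 10.4% in parenchyma, 16.9% in fat pad and 11.2% in liver. Its share was nearly constant in fat pad, between 16.2% and 17.8%, but ran from 7.35% to 17.3% in parenchyma. miR-409b, miR-494, miR-381, miR-154c, miR-543 and miR-369-3p completed the 8 members with the highest mean over both mammary sites. In fat pad alone, miR-495 stood among the first 8 in place of miR-543.

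**Figure D2:**
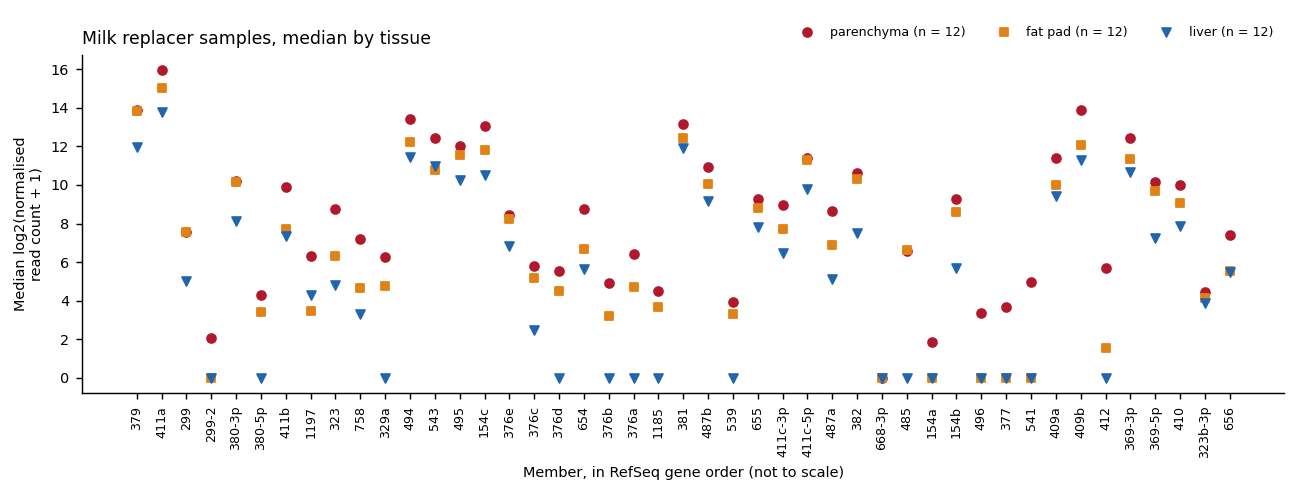
Median level of each member, as log2(normalised read count + 1), in the 12 milk replacer samples of each tissue (y axis), with members in RefSeq gene order on the x axis, not to scale. Abundant and scarce members alternate along the cluster, and the parenchyma median is the highest or level with fat pad for most members.

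Between the mammary sites, many members were higher in parenchyma and none was higher in fat pad. The milk replacer samples were compared with limma on log2(value + 1), with feeding as a covariate, over microRNAs with a mean of at least 10, and a Benjamini-Hochberg adjusted p of at most 0.05 was called. Of the 45 members 40 passed the filter, and 32 were higher in parenchyma and 0 lower, where 50.3% of all 336 microRNAs tested were called higher. Their median log2 difference was 1.04, beside 0.37 over all tested. Because a member that is low in one tissue can pass the filter through the other alone, the 35 with a mean of at least 10 in both sites were also counted, and 27 of these were higher. Over all microRNAs with such means, 137 of 293 were higher. The count fell to 21 when control samples of both sites were included, so it depended on the feeding groups used.

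miR-411b showed the clearest gap among the named members. It lay between 424 and 1375 in parenchyma (median 953) and between 163 and 315 in fat pad (median 208), with no overlap. Its log2 difference was 2.09 (SE 0.17, limma adjusted p = 3.29e-11). miR-323 ran from 226 to 619 (median 434) in parenchyma and from 52.8 to 170 (median 77.2) in fat pad, again without overlap, a difference of 2.34 (SE 0.21, limma adjusted p = 2.03e-10).

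The abundant miR-409b lay between 8209 and 19932 in parenchyma (median 15290) and between 1860 and 9543 in fat pad (median 4362). These ranges overlapped only at their ends, and the difference was 1.82 (SE 0.20, limma adjusted p = 7.92e-09). miR-758 (2.39), miR-654 (2.04) and miR-1197 (3.61) also rose by a large amount from fat pad to parenchyma. The last was at 0 in 3 fat pad samples, so that its fitted difference depends on the constant added before the logarithm. Of the 40 members tested, 8 had every parenchyma value above every fat pad value, where 18.5% of all microRNAs tested did, so their share was near the background.

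The other 8 members tested, of which most were less abundant than miR-379, did not differ between the sites by the test. miR-379 had means of 16840 ± 5870 and 14331 ± 2558 (SD, n = 12 each), a log2 difference of 0.17 with a limma adjusted p of 0.311. miR-380-3p gave -0.03, miR-382 0.09, miR-411c-5p 0.10, miR-485 0.02, miR-299 0.08, miR-376e 0.17 and miR-323b-3p 0.57. The members of the MIR379 end thus differed among themselves, with miR-411a called at 1.00 (SE 0.15, limma adjusted p = 1.42e-06) and its neighbour miR-379 not called.

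Against liver the gap was wider. All 39 members that passed the filter were higher in parenchyma, where 45.5% of 343 microRNAs were, with a median log2 difference of 2.51 beside 0.39. The 29 members with a mean of at least 10 in both tissues were all called, with differences from 1.16 for miR-381 to 4.36 for miR-758. Their median was 2.13, beside 0.17 over all 287 microRNAs with such means, of which 119 were higher. The call of miR-758 was lost with the log2 of the estimated reads in the fit (2.52, limma adjusted p = 0.0715). Every parenchyma value exceeded every liver value for 28 of the 39, where 27.4% of all microRNAs tested did. The 28 include members that passed the filter through parenchyma alone, so this count was in part set by the filter.

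miR-485 ran from 65.2 to 150 (median 95.97) in parenchyma and from 0 to 13.1 in liver, where 8 of 12 samples were at 0. miR-329a ran from 34.6 to 96.4 (median 74.8) and was at 0 in 11 of 12 liver samples. miR-376a, of a family known for editing of adenosine in its hairpins, ran from 41.7 to 202 (median 84.5) and was at 0 in 9 of 12 liver samples. For these members the tissues did not overlap, but the zeros in liver are within what 5 reads allow, so no fold is given. miR-323 ran from 226 to 619 in parenchyma and from 0 to 55.9 (median 27.0) in liver, and miR-487a from 273 to 684 and from 0 to 71.5 (median 34.3).

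Fat pad stood between. Of 34 members tested, 28 were higher in fat pad than in liver and 0 lower, where 40.1% of 327 microRNAs were higher, and the median log2 difference was 1.44 beside 0.20. Among the 28 with a mean of at least 10 in both, 23 were higher, where 110 of 274 microRNAs with such means were. miR-382 ran from 664 to 2415 (median 1281) in fat pad and from 86.8 to 491 (median 183.3) in liver, with no overlap and a difference of 2.79 (SE 0.25, limma adjusted p = 2.58e-10). The corresponding differences were 3.31 for miR-154b, 2.55 for miR-487a, 2.47 for miR-369-5p and 2.43 for miR-299. Across 6 alternatives those of miR-154b and miR-487a fell to as low as 2.08 and 1.84, and both stayed called. The liver values of miR-487a reached down to 0, so the size of its difference depends in part on the constant added before the logarithm. miR-485 was again at 0 in 8 of 12 liver samples and lay between 27.9 and 175 in fat pad. miR-543 (-0.13), miR-411b (0.27), miR-381 (0.39), miR-656 (0.19), miR-323b-3p (0.79) and miR-1197 (-0.28) did not pass.

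The tissues did not order the members alike. miR-381, miR-411b, miR-543, miR-656 and miR-1197 were higher in parenchyma than in the other tissues, between which no difference passed. For miR-299, miR-382, miR-380-3p, miR-485, miR-379, miR-376e and miR-411c-5p it was liver that was lower than both mammary sites, between which no difference passed. In bulk tissue, fewer cells that express the cluster and less RNA per cell cannot be told apart.

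The 8 listed microRNAs of the proximal side of the domain, near MEG3 and the antisense of RTL1, gave similar counts. They were miR-127, miR-136, miR-370, miR-431, miR-432, miR-433, miR-493 and miR-665. In parenchyma 7 of 8 were higher than in fat pad and 8 of 8 higher than in liver, and 7 of 7 tested were higher in fat pad than in liver. Their median log2 differences were 1.52, 2.96 and 1.49. miR-127, encoded opposite RTL1, was more abundant than any distal member by median in parenchyma, at 77133 (lowest 39354, highest 114268) against 62918 for miR-411a.

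The strands of single hairpins were not used in fixed proportion. Both arms were listed for miR-369, miR-380 and miR-411c. For miR-369 the 3p strand led, with a log2 ratio of 3p to 5p of 2.29 ± 0.29 in parenchyma, 1.70 ± 0.45 in fat pad and 3.44 ± 0.67 in liver (SD, n = 12 each). Parenchyma (1.85 to 2.71) lay below liver (2.19 to 4.28) by a difference of -1.16, with an overlap, and the adjusted p was 0.00028 in a two-sided permutation test with 100000 resamples over the 6 arm comparisons made.

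Between fat pad and liver the ratio differed by -1.74 (permutation test, adjusted p = 6e-05, from the smallest p that the resamples can give), and between parenchyma and fat pad by 0.59 (permutation test, adjusted p = 0.00127). With the control samples included, the last difference was 0.26 with an unadjusted permutation p of 0.203. The 3 control parenchyma samples had lower ratios, 0.33 to 1.33, than all milk replacer parenchyma samples.

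For miR-411c the 5p strand led instead. Its log2 ratio of 3p to 5p was -2.36 ± 0.23 in parenchyma, -3.50 ± 0.49 in fat pad and -3.19 ± 0.71 in liver (SD, n = 12 each). Parenchyma exceeded fat pad by 1.14 (permutation test, adjusted p = 6e-05) and liver by 0.84 (permutation test, adjusted p = 0.0006), whereas fat pad and liver differed by -0.31 (permutation test, adjusted p = 0.232). The 5p strand of miR-411c was not called between the mammary sites (0.10), while the 3p strand was higher in parenchyma by 1.23 (SE 0.22, limma adjusted p = 1.51e-05). These arm comparisons were chosen after the values were seen. For miR-380 the 5p strand was at 0 in all milk replacer liver samples, which left no ratio there.

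**Figure D3:**
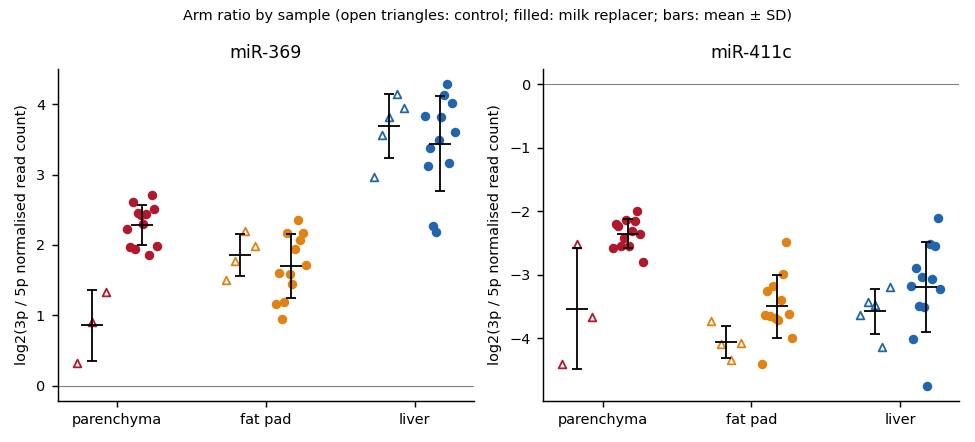
Log2 ratio of the 3p to the 5p normalised read count (y axis) of miR-369 and miR-411c in each sample, by tissue (x axis). Open triangles are control samples, filled circles milk replacer samples, and bars mean ± SD. miR-369 is most 3p-led in liver (mean 3.44), and miR-411c is least 5p-led in milk replacer parenchyma (mean -2.36).

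The amount of milk replacer changed few members. In parenchyma 0 of 41 members passed the test between 6 ad libitum and 6 restricted samples, where 0% of 333 microRNAs were called higher, and 1 member had an unadjusted p under 0.05 (11 of all microRNAs). The lowest p-values were those of miR-323b-3p (0.92), miR-485 (0.43) and miR-409b (0.39), each with a limma adjusted p of 0.9. In liver 0 of 29 members passed, where 0% of 308 were called higher, and 1 had an unadjusted p under 0.05 (12 of all microRNAs). There miR-380-3p gave 0.63, miR-494 0.45 and miR-409b 0.42, each with a limma adjusted p of 0.969.

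In fat pad members moved in both directions. Of 35 tested, 2 were higher with ad libitum feeding, where 8.2% of 305 microRNAs were called higher, and 2 were lower, where 8.2% were called lower. These shares are near the background.

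miR-376e had values of 122.3, 209.8, 268.2, 276.3, 269.1 and 236.3 in the ad libitum samples 3, 6, 7, 9, 11 and 15, and 357.0, 595.0, 413.0, 313.3, 599.6 and 487.2 in the restricted samples 4, 5, 8, 10, 13 and 16. All ad libitum values lay below all restricted ones. It fell by 1.01 on the log2 scale with ad libitum feeding (SE 0.22, limma adjusted p = 0.01), and it was called under each of the 16 alternatives, the omission of each sample included.

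miR-381 ran from 3417 to 5897 (median 4417) with ad libitum and from 5329 to 7732 (median 5878) with restricted feeding, overlapping at the ends, a difference of -0.48 (SE 0.13, limma adjusted p = 0.0249). In the other direction, miR-409b ran from 3694 to 9543 (median 5676) with ad libitum and from 1860 to 5662 (median 2353) with restricted feeding, a difference of 1.08 (SE 0.29, limma adjusted p = 0.021). miR-154c ran from 3583 to 7577 (median 4186) and from 2104 to 3714 (median 3069), with an overlap as for miR-409b and a difference of 0.66 (SE 0.20, limma adjusted p = 0.0364). The last 3 calls were less stable. miR-154c was lost without sample 4, 8, 9, 10, 11 or 16, miR-409b without 8, 9 or 16, and miR-381 without 9 or 13, with limma adjusted p-values between 0.0525 and 0.087. The miR-381 call was also lost after rescaling each library to the same sum (-0.33, limma adjusted p = 0.0996) and with the control samples in the fit (limma adjusted p = 0.0696).

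No member differed between parenchyma and fat pad in the response to the amount by the interaction test (0 of 40 members, where 0% of 336 microRNAs were called higher). An unadjusted p under 0.05 was found for 4 members (31 of all microRNAs). miR-376e gave 0.97 (SE 0.38, limma adjusted p = 0.404), miR-299 0.60 and miR-380-5p -1.81.

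Milk replacer samples were then compared with control samples, within each tissue and in 1 fit per tissue. In parenchyma 36 of 41 members tested were higher with milk replacer and 0 lower, where 30.1% of 339 microRNAs were called higher. The median log2 difference was 2.34, beside 0.13 over all tested. All 12 milk replacer values exceeded all 3 control values for 25 of the 41, where 16.5% of all microRNAs tested did. The 25 include members that passed the filter through the milk replacer samples alone, so this count was in part set by the filter. Restricting to the 34 members with a mean of at least 10 in both groups left 29 called higher, where 84 of 310 microRNAs with such means were. Their median log2 difference was 2.11, beside 0.06.

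miR-369-3p had values of 840, 556 and 402 in the control samples 1, 2 and 18, and lay between 3086 and 7101 (median 5583) with milk replacer. It rose by 3.21 (SE 0.28, limma adjusted p = 8.38e-08). miR-487a had control values of 63.6, 52.0 and 4.41 and lay between 273 and 684 (median 406), a difference of 3.96 (SE 0.55, limma adjusted p = 1.87e-05). The groups did not overlap for either. miR-329a (3.72), miR-376a (3.53) and miR-1197 (3.16) also rose, although with control sample 2 alone, assumed to vary like the milk replacer samples, miR-376a gave 1.15 (limma adjusted p = 0.171). miR-541 and miR-380-5p were at 0 in all 3 control samples and above 0 in all 12 milk replacer samples, at 3.99 to 42.4 and 11.3 to 46.5.

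miR-381, miR-376e, miR-376b, miR-377 and miR-323b-3p did not pass. For miR-381 the control values were 6519, 13912 and 2263, of which the last lay below the milk replacer range of 4131 to 16607. In control parenchyma miR-381 made up 10.5% to 15.7% of the member counts, above its 3.77% to 7.18% with milk replacer.

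Of the cell marker lists given here, only the epithelial one set all 3 control parenchyma samples apart from the milk replacer samples. The other lists set only some of the controls apart. Beside the low epithelial microRNAs given above, the mean log2 level of 8 blood and immune microRNAs was 8.35, 8.95 and 10.34 in samples 1, 2 and 18, against 7.28 to 9.10 with milk replacer. That of the adipocyte-linked miR-378 rows was 10.79, 10.84 and 8.64, against 7.13 to 9.22. The stromal and smooth muscle list was at 15.62, 15.74 and 14.74, against 15.19 to 15.69. miR-122 was at 11.58, 6.53 and 2.30, against 3.72 to 8.98, so that sample 1 was the highest of all parenchyma samples. Sample 18 was the lowest for the members, at 4.71 against 6.34 and 6.48. Fewer members were called higher with control sample 1 or 2 alone than with all 3 controls, and more with sample 18 alone. The lone control then had no spread of its own and was assumed to vary like the other samples. The share over all microRNAs was not taken in these fits. The part of cell makeup in the difference was not tested, and it cannot be told apart from feeding.

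In fat pad 2 of 35 members were higher with milk replacer than in the 4 controls and 0 lower, where 7.31% of 301 microRNAs were called higher. The share of members was thus near the background. miR-487a had control values of 77.0, 29.7, 40.2 and 37.9 and lay between 71.0 and 272 (median 116) with milk replacer, a difference of 1.47 (SE 0.32, limma adjusted p = 0.00966). miR-543 had control values of 564, 898, 872 and 701 and lay between 925 and 4000 (median 1777), with no overlap and a difference of 1.27 (SE 0.30, limma adjusted p = 0.0146). miR-409b just missed the threshold (0.83, limma adjusted p = 0.0509). Without the restricted sample 10 the count was 4. With the log2 of the estimated reads in the fit it was 1, and miR-543 had a limma adjusted p of 0.0613.

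In liver the direction was the opposite. Of 30 members tested, 11 were lower with milk replacer than in the 5 controls and 0 higher, where 5.18% of 309 microRNAs were called lower. The members thus made up 11 of the 16 microRNAs that fell, and the difference was negative for 29 of the 30 (median -0.95, beside 0.03 over all tested). Every milk replacer value lay below every control value for 7 of the 30, where 2.59% of all microRNAs tested did, 8 in number. Among the 29 members with a mean of at least 10 in both groups, 10 were lower, where 15 of 296 microRNAs with such means were.

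miR-655 had control values of 552, 594, 716, 477 and 752 in samples 1, 2, 18, 19 and 21, and lay between 161 and 353 (median 226) in the 12 milk replacer samples. It fell by 1.37 on the log2 scale (SE 0.22, limma adjusted p = 0.00116). For miR-380-3p the controls were 614, 714, 869, 970 and 797, and the milk replacer samples lay between 172.1 and 542.9 (median 277). It fell by 1.41 (SE 0.24, limma adjusted p = 0.00116). The groups did not overlap for either member.

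miR-411b had control values of 394, 583, 512, 341 and 592 and lay between 125 and 281 (median 164), a difference of -1.43 (SE 0.26, limma adjusted p = 0.00183). miR-376e, of the edited miR-376 family, had control values of 359, 380, 514, 244 and 455 and lay between 34.0 and 190 (median 114), a difference of -1.79 (SE 0.34, limma adjusted p = 0.00183). Here too no milk replacer value reached a control value. miR-299 had control values of 118, 71.2, 158, 71.7 and 150 against 13.1 to 62.3 (median 31.8), a difference of -1.73 (SE 0.41, limma adjusted p = 0.0114). miR-369-3p ran from 2666 to 5112 in controls and from 806 to 3389 with milk replacer, an overlap at the ends with a difference of -1.18 (SE 0.26, limma adjusted p = 0.00758).

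miR-376c had control values of 39.8, 54.8, 71.7, 47.1 and 72.3 and was at 0 in 6 of 12 milk replacer samples, with the others reaching 29.9. Its call (limma adjusted p = 0.0459) was lost without 13 of the 17 samples in turn. miR-487b, miR-379, miR-411c-5p and miR-382 passed with limma adjusted p-values of 0.0456 to 0.0488. The most abundant member, miR-411a, did not pass, at 14744 to 27008 in controls and 9643 to 33649 with milk replacer (-0.52, limma adjusted p = 0.257), and miR-543 gave 0.11.

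**Figure D4:**
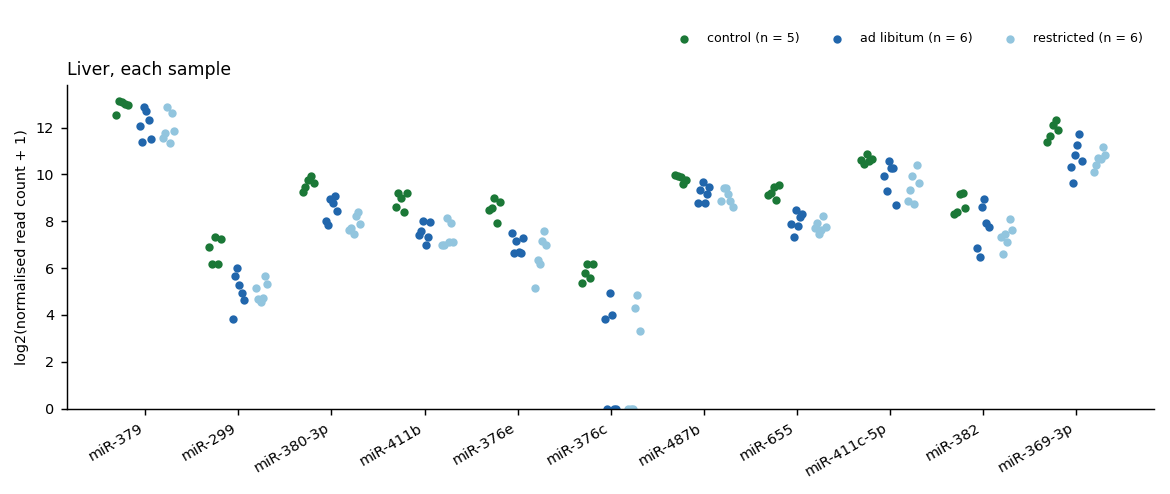
The 11 members called in liver, as log2(normalised read count + 1) in each sample (y axis), by feeding label. Green points are the 5 control samples, dark and light blue points the 6 ad libitum and 6 restricted samples. The controls sit above all milk replacer samples for miR-655 (477 to 752 against 161 to 353) and overlap them for miR-379, miR-382 and miR-369-3p.

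The count of 11 was sensitive to single samples. It ran from 5 to 12 when 1 sample was left out, with 5 without control 18 or 21, and 6 or 7 without sample 1, 2, 3, 4, 5, 6, 10, 11 or 16. miR-299 was lost without control 18 (limma adjusted p = 0.0751) or 21 (limma adjusted p = 0.0725), whereas miR-376e, miR-380-3p and miR-411b were called under each of the 22 alternatives. Controls had 2434559 to 4424106 estimated reads and milk replacer samples 826776 to 5146724. With the log2 of the estimated reads in the fit 7 members were lower, and with libraries of at least 2000000 reads 6 were. The hepatocyte microRNA miR-122 lay between 18.55 and 19.80 as log2(value + 1) in controls and between 18.12 and 19.91 with milk replacer. The adipocyte-linked miR-378 rows lay between 8.68 and 9.35 in controls and between 8.02 and 8.99 with milk replacer, and their part in the result was not tested.

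Of the 15 members not tested in this comparison, miR-1185 was at 0 in all 12 milk replacer samples and at 13.4 to 32.7 in all 5 controls. It is named after its values were seen, and 5 reads amount to a value of 5.62 to 31 in these milk replacer libraries. miR-376b and miR-377 were above 0 in 4 of 5 controls each, and in 0 and 1 of 12 milk replacer samples.

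**Figure D5:**
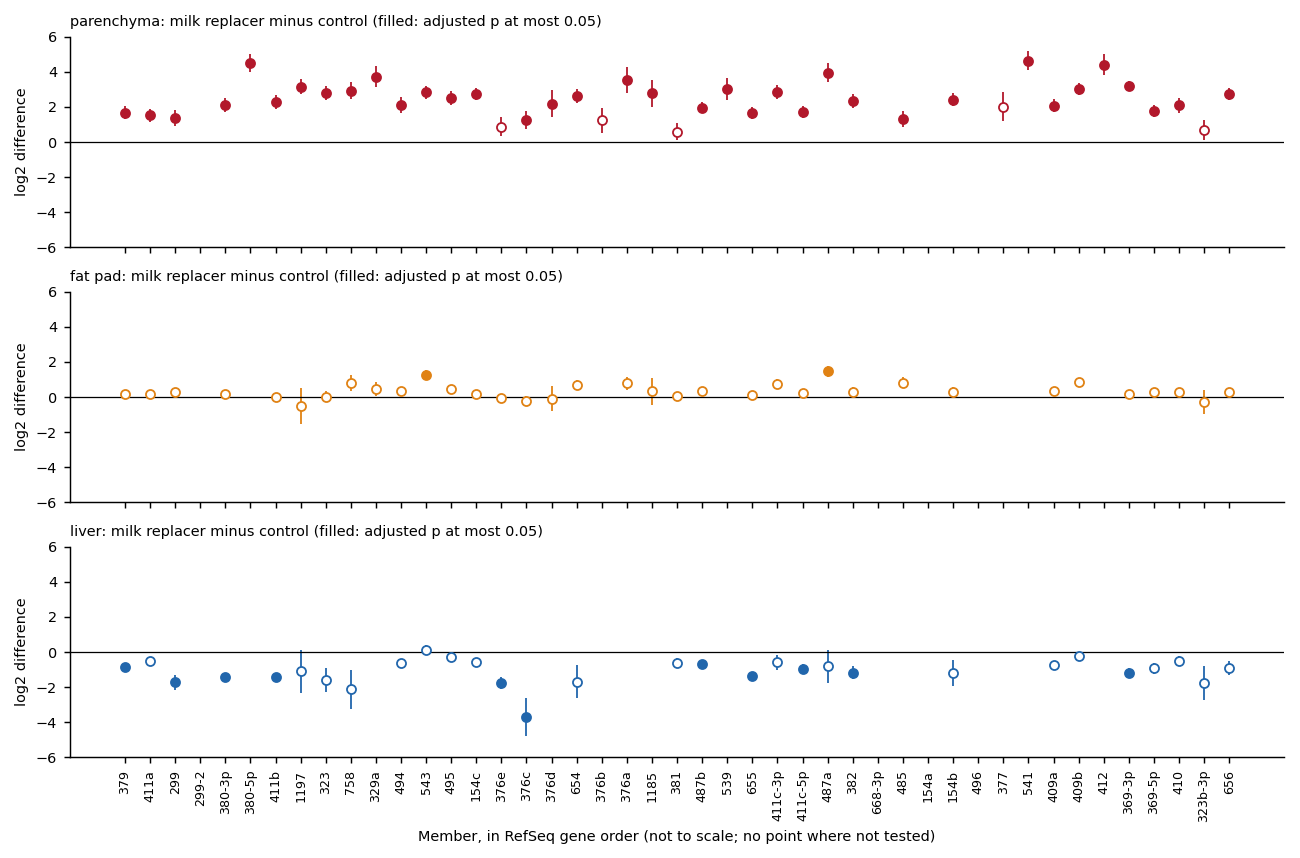
Log2 difference of milk replacer minus control (y axis, error bars SE) for each member tested, in RefSeq gene order (x axis, not to scale), in parenchyma, fat pad and liver. Filled points have a limma adjusted p of at most 0.05. In parenchyma 36 of 41 are filled and above 0, in fat pad 2 of 35, and in liver 11 of 30 are filled and below 0.

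The difference between tissues was tested directly. The milk replacer difference was larger in parenchyma than in fat pad for 30 of 40 members and smaller for 0, where 20.5% of 336 microRNAs were called larger. miR-369-3p differed most surely, by 3.06 (SE 0.30, limma adjusted p = 5.27e-09), and miR-154c differed by 2.58 (SE 0.39, limma adjusted p = 7.61e-06). miR-541 also had one of the lowest p-values, but it was above 0 in milk replacer parenchyma alone, so its value restates that level. Of the 35 members that passed the filter within both sites, 28 were larger, where 58 of 294 microRNAs that did so were. The 9 epithelial microRNAs, low in control parenchyma, were all larger in the same test, with a median of 6.74 beside 1.98 for the members, and their part in the result was not tested. With control parenchyma sample 1 or 2 alone, fewer members were called larger, where the lone control was assumed to vary like the other groups.

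Tests of fat pad and parenchyma against liver were added after the values were seen. The difference was larger in fat pad than in liver for 16 of 34 members and smaller for 0, where 7.69% of 325 microRNAs were called larger. miR-655 differed by 1.51 (SE 0.27, limma adjusted p = 0.00106), miR-380-3p by 1.61 (SE 0.30, limma adjusted p = 0.00153) and miR-299 by 2.01 (SE 0.40, limma adjusted p = 0.00249). The count was 9 without liver control 18, 7 without fat pad control 19 and 9 without fat pad control 21. Between parenchyma and liver 35 of 38 members differed, where 22.4% of 343 microRNAs were called larger, with miR-369-3p at 4.40 and miR-409b at 3.25. Among the 30 members that passed the filter within both parenchyma and liver, 28 were larger in parenchyma, where 61 of 291 microRNAs were. The same 30 members also passed it within fat pad, and 15 of them were larger in fat pad than in liver, where 23 of 274 microRNAs were. The 9 epithelial microRNAs were again all larger in parenchyma than in liver, with a median of 8.84 beside 3.48 for the members.

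The proximal microRNAs of the domain followed in part. In parenchyma 7 of 8 were higher with milk replacer (median 2.59), in fat pad 1 of 7 and in liver 0 of 6, where miR-493 alone was lower. miR-493 ran from 1871 to 3106 in liver controls and from 446 to 2003 with milk replacer, a difference of -1.57 (SE 0.29, limma adjusted p = 0.00183). miR-127 ran from 17508 to 22136 and from 8658 to 25775, and it did not pass. miR-370, the next proximal member by mean, was the one called in fat pad, at 1.70 (SE 0.22, limma adjusted p = 0.000169). In liver miR-370 gave 0.45 (limma adjusted p = 0.476).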

How the data were processed

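The authors deposited 1 table of 48 small RNA libraries (NEBNext kit), which holds counts divided by DESeq2 size factors, a normalised read-count scale. Tools named in the submitters' processing notes are DESeq2, Trim Galore, FastQC and bcl2fastq, with no versions. The aligner, build and microRNA database behind the deposited table were not given in the sources used here. For its comparison of microRNA programs the study names a UMD build of the cow genome and miRBase, but not as the source of this table. Every value divided by its library's step, the worth of 1 read, gave a whole number within 0.01. The smallest one above 0 was 6, and depth was estimated from these reads. No count model was run on them. The table's 6 columns of the authors' own comparison (mean, fold change, p-values) were not used.

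Groups were compared with limma 3.58.1 (R 4.3.3, lmFit and eBayes with a trend) on log2(value + 1) over microRNAs with a mean of at least 10, at a Benjamini-Hochberg adjusted p of 0.05 over all tested. Ratios were compared with permutation tests in Python 3.11.15 (scipy 1.17.1). For some of the limma comparisons, large known changes planted in abundant microRNAs of simulated data were recovered. Small changes, scarce members, the tests of differences between tissues in the feeding effect and the permutation tests were not simulated. Among 109 pairs of samples of 1 group, none agreed within counting error. Alternatives were another pseudocount (10), no filter, rescaling, other sample sets, depth as a covariate, the sample number as a block and leaving out each sample.

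The members and lists were chosen with earlier results of these data known. Named members were the 8 with the highest mammary mean, the largest called changes among those whose mean reached 50 in either group (6 per direction between tissues, 5 between feeding groups), the 3 lowest p-values where none passed and in tests of differences between tissues, and arm pairs. Groups by shared seed could not be formed. Some microRNAs are not reported here.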

Additional observations from a re-analysis of the deposited data

Results flagged for a closer look

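Single samples far from the rest of their group were found in 13 of 229 member and group combinations, where chance flags about 1 in 20. In restricted fat pad, sample 5 was the highest for miR-543 (3003), miR-323 (161.5) and miR-654 (162.1). In ad libitum liver, sample 7 was the highest for miR-409b (5602) and miR-369-5p (399.8). In restricted liver, sample 8 was high for miR-411a (33649), sample 13 for miR-369-5p (257.5), sample 10 for miR-329a (13.7, with the others at 0) and sample 16 for miR-376a (9.00, with the others at 0). The remaining ones were miR-380-5p in ad libitum parenchyma sample 7 (46.5), miR-411b in ad libitum fat pad sample 11 (315), miR-323b-3p in ad libitum fat pad sample 3 (0) and miR-380-5p in liver control 1 (5.68, with the others at 0).

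The milk replacer difference differed between tissues by the interaction test. Between parenchyma and fat pad this held for 30 members, first of all miR-369-3p (3.06), miR-541 (4.65) and miR-154c (2.58). Between fat pad and liver it held for 16 members, with miR-655 (1.51), miR-380-3p (1.61) and miR-299 (2.01) first. Between parenchyma and liver it held for 35 members, with miR-369-3p (4.40), miR-409b (3.25) and miR-1185 (7.25) first. The values of miR-541 and miR-1185 are no measure of size, since they passed the filter through parenchyma alone and their other groups were at 0 in part or throughout. For members that passed the filter within both tissues the counts were 28 of 35, 15 of 30 and 28 of 30. Over all such microRNAs they were 58 of 294, 23 of 274 and 61 of 291. The control parenchyma samples were low in the epithelial microRNAs, which were larger in parenchyma in 9 of 9 cases in both tests that involve it.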

How the results depend on the processing

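No difference of a named member and no arm ratio difference changed sign under the alternatives run. Counts of members were compared by size only, and the sign was not checked for members that were not named. Of 540 recomputed counts of members 504 stayed within 1.5 times the reported count, and of 937 recomputed differences of single members 33 lost their call. Many of the reported counts were 0, and those that stayed at 0 are among the 504. Of the larger ones, the liver count of 11 members lower with milk replacer moved further than that in 13 of 22 alternatives. The fat pad count of 2 members higher with ad libitum feeding did so in 10 of 16. With all feeding groups, 21 members were higher in parenchyma than in fat pad, and the miR-369 arm difference between these sites was 0.26. In fat pad, the ad libitum comparison gave 4 members higher and 1 lower both after rescaling to a sum of 1000000 and with all samples of the tissue in the fit. Leaving out 1 sample gave 0 to 4 higher and 1 to 2 lower there, 2 to 4 higher for milk replacer against control in fat pad, 5 to 12 lower in liver, and 7 to 18 for the difference between fat pad and liver. With the estimated reads in the fit, milk replacer against control gave 1 member in fat pad and 7 in liver, and libraries of at least 2000000 reads gave 6 in liver. With control parenchyma sample 1 or 2 alone, the difference between parenchyma and fat pad gave 14 or 17 members larger, and 1 smaller with sample 2. The cause was not tested.

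Rescaling moved the median of all microRNAs from 0.37 to 0.70 for parenchyma against fat pad, from 0.39 to 0.95 for parenchyma against liver, from 0.20 to 0.46 for fat pad against liver and from 0.13 to 0.42 for milk replacer against control in parenchyma. The share of higher among all calls went from 60.6% to 71.5%, from 59.5% to 74.7%, from 52.4% to 58.8% and from 66.2% to 76.4%. It went from 50% to 75% for ad libitum against restricted in fat pad, from 66.7% to 80.8% for milk replacer against control in fat pad and from 23.8% to 4.35% in liver, and for the differences between tissues from 61.1% to 75.7%, from 78.1% to 100% and from 62.1% to 81.5%.

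Same-numbered samples of parenchyma and fat pad deviated together (correlation over 0.1) in 7 of 14 pairs, of parenchyma and liver in 6 of 15, and of fat pad and liver in 11 of 16. Samples correlated best with their own number in 5, 4 and 9 pairs, a hint from the data that some share a source. The median correlation was 0.101, 0.073 and 0.144 with the same number and -0.024, -0.020 and -0.037 with another number. The highest was 0.475, 0.328 and 0.257 with the same number, and 0.449, 0.326 and 0.308 with another, so single correlations do not tell the pairs apart. Because the labels do not tie the numbers to animals and not every pair exceeded 0.1, the numbers were not taken as a pairing. With the number as a replicate block, 32, 39 and 29 members were higher in the 3 tissue comparisons and 31, 16 and 35 in the differences of the milk replacer effect. Depth limits the members near 0 in liver, where a value of 0 allows up to 31.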

Other observations

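Of the 8 other microRNA genes that RefSeq places between the first and the last member, miR-134, miR-3956 and miR-3957 had rows. They were looked at after the values of the members were seen. miR-134, known for its role in the dendrites of neurons, ran from 172 to 680 (median 523) in the 12 milk replacer parenchyma samples, from 114 to 288 (median 203) in fat pad and from 0 to 52.3 (median 25.4) in liver. In liver controls it ran from 111 to 239 (median 170), above all milk replacer liver samples, a difference of -3.28 (SE 0.85, limma adjusted p = 0.0258). In control parenchyma it ran from 23.5 to 154.2, below all milk replacer parenchyma samples. The other 5 microRNAs lower with milk replacer in liver, beside the 11 members, were miR-134, miR-493 of the proximal side, miR-378-1, miR-378-2 and miR-378c.

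miR-3956 ran from 126 to 399 in milk replacer parenchyma and from 72.0 to 454 in fat pad, and was at 0 in 8 of 12 milk replacer liver samples and 4 of 5 liver controls. miR-3957 was above 0 in all 12 milk replacer parenchyma samples, at 9.76 to 47.0, and at 0 in all liver samples.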
